A study of Mus musculus with 8 samples.

Results

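The genes described here are the 6 that encode the vesicular and the plasma membrane glutamate transporters of the forebrain. They were chosen by name, as the rows of the count table for Slc17a7, Slc17a6 and Slc17a8 (VGLUT1, VGLUT2 and VGLUT3) and for Slc1a2, Slc1a3 and Slc1a1 (GLT-1, GLAST and EAAC1), 6 of 54532 genes in the table. All 6 were among the 17195 genes with enough reads to be tested. RNA-seq was performed on the cortex of 8 mice on the C57BL/6 strain at an age of 8 mo, 4 PS19 mice and 4 Adrb1+/m;PS19 mice (Adrb1-A187V;PS19 mice below), with 1 library per mouse and each mouse called by its number in the labels. Both genotypes carried the PS19 transgene, a human tau with a frontotemporal dementia mutation driven by the mouse prion promoter. The labels state single housing, and the study's methods state that male mice with littermate controls were used. The Adrb1-A187V;PS19 mice carried, in addition, 1 copy of a knock-in mutation in Adrb1, the gene of the β1-adrenergic receptor, so the comparison addresses the effect of the receptor mutation among tau mice and has no mice without the tau transgene. Libraries held 14653222 to 21223754 counts in PS19 mice and 16865651 to 20802158 in Adrb1-A187V;PS19 mice.

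Glutamate is the main excitatory transmitter of the cortex. VGLUTs use the proton gradient of synaptic vesicles to fill them with glutamate. VGLUT1 is the principal form in neurons of the cortex and hippocampus, VGLUT2 that of neurons of the thalamus and many subcortical nuclei, and VGLUT3 is found in sparse cells that also release another transmitter, such as cholinergic interneurons of the striatum, serotonin neurons and some cortical interneurons. Released glutamate is removed by sodium-coupled carriers of the plasma membrane. GLT-1 and GLAST act mainly in astrocytes, which turn glutamate into glutamine and hand it back to neurons, and EAAC1 acts mainly in neurons. The β1-adrenergic receptor signals through Gs and cyclic AMP.

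Sequence before a RefSeq start (GRCm38.p6) was found for all 6 genes, with a second start for some of them, and 3 windows are printed: those of Slc17a7 and Slc17a8, the genes with unadjusted p-values under 0.05 between genotypes, and that of Slc1a3, which holds part of the cyclic AMP response element (CRE) at its first start. Each is the 250 bases before the RefSeq start, 5′ to 3′ on the gene's strand, with capitals on matches, on either strand, to the GC box GGGCGG, the CRE half-site TGACG and the TATA box TATAAA:
Slc17a7 (chr7:45163671-45163920, plus strand): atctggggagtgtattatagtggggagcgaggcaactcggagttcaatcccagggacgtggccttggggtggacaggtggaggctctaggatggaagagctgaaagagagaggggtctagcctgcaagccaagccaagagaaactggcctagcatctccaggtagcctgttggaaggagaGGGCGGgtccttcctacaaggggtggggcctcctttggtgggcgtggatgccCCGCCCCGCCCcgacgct
Slc17a8 (chr10:89621250-89621499, minus strand): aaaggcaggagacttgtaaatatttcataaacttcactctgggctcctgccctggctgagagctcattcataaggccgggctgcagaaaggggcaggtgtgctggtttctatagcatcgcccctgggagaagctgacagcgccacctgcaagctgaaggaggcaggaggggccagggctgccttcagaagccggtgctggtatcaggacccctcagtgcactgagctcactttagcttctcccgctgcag
Slc1a3 (chr15:8710808-8711057, minus strand): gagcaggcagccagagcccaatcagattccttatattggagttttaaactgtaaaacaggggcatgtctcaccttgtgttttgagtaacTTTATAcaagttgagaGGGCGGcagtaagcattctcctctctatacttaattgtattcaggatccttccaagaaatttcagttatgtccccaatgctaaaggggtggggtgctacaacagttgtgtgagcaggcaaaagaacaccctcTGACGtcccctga
The Slc17a7 window was 61.2% G or C and held 3 GC boxes, which began 70, 18 and 13 bases before the start, the last pair sharing 1 base. None of the searched motifs was in the Slc17a8 window, which was 57.2% G or C. The Slc1a3 window was 44.8% G or C and held a GC box and, 13 bases before the start, a CRE half-site. Its match to the letters of the TATA box was on the opposite strand, 161 bases before the start. A half-site was also in the window of the second RefSeq start of Slc17a6, 102 bases before it. The Slc1a2 window lies 47779 bases inside the gene as given in the count table, so the sequence before that gene's outermost start was not searched. The full CRE, TGACGTCA, which contains the half-site, was in none of the windows searched for the 6 genes and in 1.55% of 32851 windows of the same length. The half-site was in 17.8% of those windows, the GC box in 32.7% and the TATA box in 12.4%. A match is a stretch of letters and not a site of binding.

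Expression of the 6 genes spanned a wide range. Levels of different genes were compared as CPM (counts scaled to the size of the library) per kb of the gene length given in the table, and the order was Slc1a2, Slc17a7, Slc1a3, Slc1a1, Slc17a6 and Slc17a8. Slc1a2 was at 250 CPM per kb (238 to 259 over the 8 mice), rank 83 of 17195 genes, and Slc17a7 was at 199 (169 to 234), rank 121. Slc1a3 followed at 64.4 CPM per kb, rank 612. Slc1a1 was at 11.1 CPM per kb (rank 4514), Slc17a6 at 6.36 (rank 6914) and Slc17a8 at 1.24 (rank 12989). The ranges of neighbours in this order did not overlap. The order of the top pair turned with the length used: per kb of the longest protein-coding transcript in GENCODE M21, a choice made after the data were seen, Slc17a7 was at 368 CPM per kb (312 to 432) and Slc1a2 at 283 (270 to 294). The other 4 genes kept their order.

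**Figure D1:**
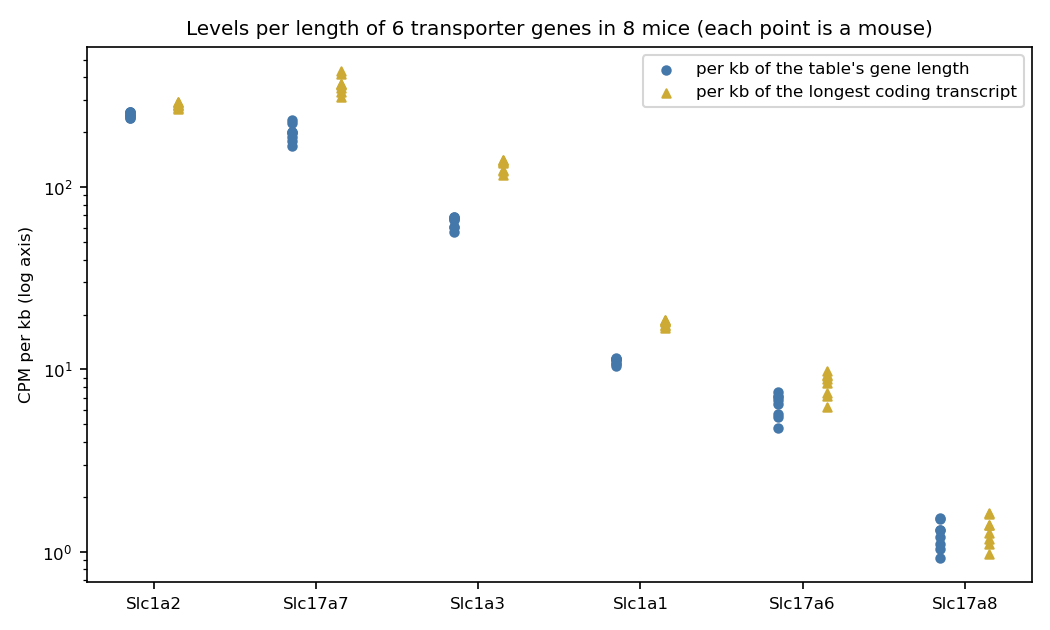
Levels of the 6 transporter genes in CPM per kb on a log axis, with a point for each of the 8 mice; circles use the gene length of the count table and triangles the longest protein-coding transcript. Slc1a2 is above Slc17a7 with the first length (250 and 199) and below it with the second (283 and 368), and Slc17a8 is lowest with both.

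No member had an adjusted p under 0.05 between genotypes, and nor did any of the 17195 genes tested (0%; quasi-likelihood test of edgeR, adjusted by Benjamini and Hochberg's method). The study selected genes on an unadjusted p under 0.05 in DESeq2. In the edgeR fit used here, 481 genes had an unadjusted p under 0.05 (2.80% of those tested). Of these, 245 were higher in Adrb1-A187V;PS19 mice (1.42% of those tested) and 236 were lower (1.37%). That 2.80% is below the share that such a threshold passes when no gene differs. Of the 6 members, 2 had an unadjusted edgeR p under 0.05, Slc17a7 at a lower level in Adrb1-A187V;PS19 mice and Slc17a8 at a higher level. The CPM ranges of the genotypes overlapped for all 6 members, whereas they did not overlap for 348 genes in all (2.02%). In whole tissue, fewer cells of a type and less RNA per cell cannot be told apart.

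**Figure D2:**
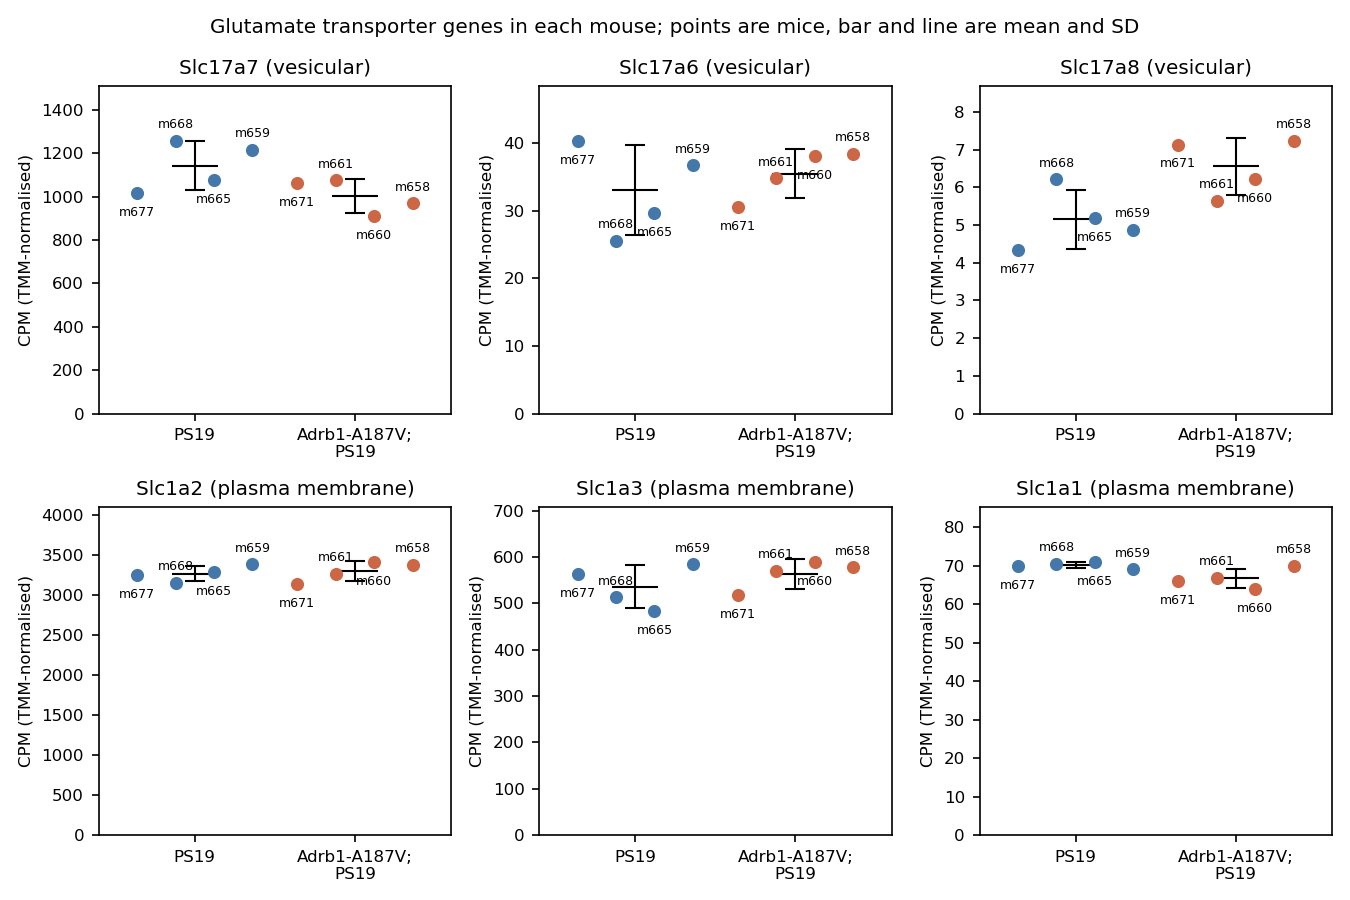
CPM of the 6 transporter genes in each mouse, in panels with axes that start at 0; points are mice, and bars give the mean and SD of 4 mice. The Slc1a2 and Slc1a1 points lie close together, the Slc17a6 and Slc17a8 points are spread more widely, and the genotypes overlap in each panel.

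Slc17a7 (ENSMUSG00000070570, chr7:45163949-45176142, plus strand, GRCm38) encodes VGLUT1. Its level was 1019 CPM in m677, 1259 in m668, 1076 in m665 and 1218 in m659 of the PS19 group. It was 1062 CPM in m671, 1076 in m661, 909 in m660 and 971 in m658 of the Adrb1-A187V;PS19 group. The lowest levels were those of m660 and m658, which were below all PS19 mice, and the highest were those of m668 and m659. The means were 1143 ± 114 and 1005 ± 78.7 CPM (SD, n = 4 each). The log2 fold change was -0.19 (SE 0.07, 95% interval -0.34 to -0.03), with an unadjusted p of 0.0217 and an adjusted p of 0.9996 in edgeR. An exact permutation test of the 70 arrangements of the mice, 2-sided, gave p = 0.114, where the smallest p it allows is 0.0286. The unadjusted edgeR p was above 0.05 without any 1 of m668, m659, m660 or m658, at 0.0563 to 0.0784. With at least 16244 counts in each library, counting error was below 1% of the level (0.731%), against a spread between mice of 10.9%.

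Markers of cortical glutamatergic neurons, the cells in which VGLUT1 is the main form, were given beside it. Of 10 such genes, 1 was higher and 9 were lower in Adrb1-A187V;PS19 mice, beside 8630 higher and 8565 lower of all 17195 tested. Genes of a list can vary together, so these 10 are not independent results. The median log2 fold change of the list was -0.10, beside 0.00 for all genes tested. Neurod6 (-0.27, unadjusted p 0.0035) and Tbr1 (-0.13, unadjusted p 0.04995), both transcription factors of these neurons, were under 0.05 in edgeR, as were 1.37% of all genes tested in the lower direction. The summed level of the list was 4184 to 4528 CPM in PS19 mice and 3971 to 4468 in Adrb1-A187V;PS19 mice, lowest in m658 and next in m660. Over the 8 mice the Slc17a7 level and the mean level of the list gave r = 0.53 (exact permutation p 0.172, adjusted p 0.436) and rho = 0.67 (exact permutation p 0.0831). Without m658 and m665, the mice farthest from the median, r was 0.58, and with genotype means subtracted it was 0.27 (exact permutation p 0.536). None of these genes was at 0. The part of these neurons' number in the Slc17a7 values was not tested.

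Slc17a6 (ENSMUSG00000030500, chr7:51622006-51671119, plus strand) encodes VGLUT2. It was at 40.4 CPM in m677, 25.6 in m668, 29.6 in m665 and 36.7 in m659. In Adrb1-A187V;PS19 mice it was at 30.6 CPM in m671, 34.9 in m661, 38.2 in m660 and 38.5 in m658. PS19 mice held both the highest and the lowest values, so the Adrb1-A187V;PS19 values lay wholly within their range. The means were 33.1 ± 6.71 and 35.5 ± 3.68 CPM (SD, n = 4 each), a log2 fold change of 0.10 (SE 0.12, 95% interval -0.16 to 0.37, unadjusted edgeR p 0.423; exact permutation p 0.543). Of the VGLUT genes summed per kb, Slc17a7 made up 95.3 to 97.5% and Slc17a6 1.98 to 3.99% over the 8 mice. The ratio of Slc17a7 to Slc17a6 was 25.3 to 49.2 in PS19 mice and 23.8 to 34.8 in Adrb1-A187V;PS19 mice. Shares of the VGLUT genes and this ratio used the count table's gene length and depend on it. Per kb of the longest protein-coding transcript, Slc17a7 was at 368 CPM and Slc17a6 at 8.30.

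Slc17a6 varied with markers of thalamic neurons, in which VGLUT2 is the main form. Over the 8 mice, the Slc17a6 level (log2 CPM) and the mean level of the 10 thalamic markers that were tested correlated with Pearson's r = 0.83 (exact permutation p 0.0145) and Spearman's rho = 0.81 (exact permutation p 0.0218). Without m660 and m658, the mice farthest from the median of the markers, r was 0.89, and after each genotype's mean was subtracted it was 0.81 (exact permutation p 0.00347). The Benjamini-Hochberg adjusted p over the family of 33 relations was 0.163, so the relation did not pass the correction. It was not particular to thalamic markers, since r of Slc17a6 was 0.83 with Slc1a3 and 0.81 with the astrocyte list. With the thalamic list the direction was the opposite for Slc17a7, with r = -0.79 (exact permutation p 0.0198, adjusted p 0.163) and rho = -0.74 (exact permutation p 0.0458). Without m660 and m658 its r was -0.48, a weaker relation over a narrower range of the markers. With genotype means subtracted it was -0.75 (exact permutation p 0.0486), and with any 1 mouse left out it was -0.88 to -0.68. The summed level of the thalamic list was 83.7 to 120 CPM in PS19 mice and 83.9 to 128 in Adrb1-A187V;PS19 mice, and of its 10 tested genes 8 were higher and 2 lower in Adrb1-A187V;PS19 mice with none under an unadjusted p of 0.05. No thalamic marker was at 0 in all mice, although Gbx2 (2 to 8 counts) and Shox2 (0 to 10 counts), both transcription factors, had too few reads to be tested. The part of tissue from outside the cortex in the Slc17a6 values was not tested.

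Slc17a8 (ENSMUSG00000019935, chr10:89574020-89621253, minus strand), which encodes VGLUT3, had the lowest level of the 6 genes. It was at 4.35 CPM in m677, 6.21 in m668, 5.19 in m665 and 4.88 in m659. In Adrb1-A187V;PS19 mice it was at 7.14 CPM in m671, 5.65 in m661, 6.21 in m660 and 7.24 in m658. The highest levels were those of m671 and m658, above all PS19 mice, while m660 was level with m668, the highest PS19 mouse, and m661 was below it, so the genotypes overlapped. The means were 5.16 ± 0.785 and 6.56 ± 0.763 CPM (SD, n = 4 each). The log2 fold change of 0.35 (SE 0.15, 95% interval 0.01 to 0.68) had an unadjusted p of 0.0421 and an adjusted p of 0.9996 in edgeR, and the exact permutation test gave p = 0.0571. The unadjusted edgeR p was above 0.05 without any 1 of m677, m665, m659, m671, m660 or m658, at 0.0513 to 0.115. Only 71 to 128 reads per library stood behind these values, for which counting error is 9.97% of the level against a spread between mice of 17.7%. As a share of the VGLUT genes per kb, Slc17a8 was 0.442 to 0.549% in PS19 mice and 0.578 to 0.813% in Adrb1-A187V;PS19 mice, shares that did not overlap and were not tested, since they join the lower Slc17a7 to the higher Slc17a8.

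Markers of striatal and of basal forebrain cholinergic neurons varied with Slc17a8. Of 9 basal forebrain cholinergic genes, all were higher in Adrb1-A187V;PS19 mice and 8 were under an unadjusted p of 0.05 in edgeR, with a median of 0.69 on the log2 scale and none under an adjusted p of 0.05. Among them were Lhx8, Gbx1 and Isl1, transcription factors, Chat, Slc18a3 and Slc5a7, which make, package and recover acetylcholine or its choline, and Ngfr, a receptor of nerve growth factor. Of the 17195 genes tested, 8630 were higher in Adrb1-A187V;PS19 mice, and 1.42% were higher with an unadjusted p under 0.05. Genes of a list were measured in the same 8 mice and can vary together. The counts for the cholinergic and striatal lists are therefore not counts of independent results. Several of the cholinergic genes had few reads, such as Gbx1 with 12 to 75 and Lhx8 with 20 to 92 counts per library, while Slc5a7 had 108 to 304. The summed level of the 9 was 40.9, 59.6, 36.1 and 56.3 CPM in m677, m668, m665 and m659 and 74.2, 57.6, 61.5 and 88.8 CPM in m671, m661, m660 and m658. Of 9 striatal genes, all were higher in Adrb1-A187V;PS19 mice, 1 of them, the neuropeptide gene Tac1 (log2 fold change 0.47, unadjusted p 0.0341), under 0.05 in edgeR. Their summed level was 977 to 1950 CPM in PS19 mice and 1021 to 2186 in Adrb1-A187V;PS19 mice, with overlap. These correlations were computed after the data were seen: Slc17a8 with the cholinergic list gave r = 0.90 (exact permutation p 0.0034) and rho = 0.90 (exact permutation p 0.00456), and with the striatal list r = 0.88 (exact permutation p 0.00689) and rho = 0.86 (exact permutation p 0.0107). The adjusted p over 35 relations was 0.116 for each r. This adjustment does not correct for the choice of gene and lists, since only Slc17a8 was set against these lists. Without the pair of mice farthest from the median, r was 0.85 with the cholinergic list and 0.79 with the striatal list. With genotype means subtracted, r was 0.77 (exact permutation p 0.0538) with the cholinergic and 0.96 (exact permutation p 0.00347) with the striatal list. No gene of either list was at 0 in all mice, and the part of such tissue in the Slc17a8 values was not tested.

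**Figure D3:**
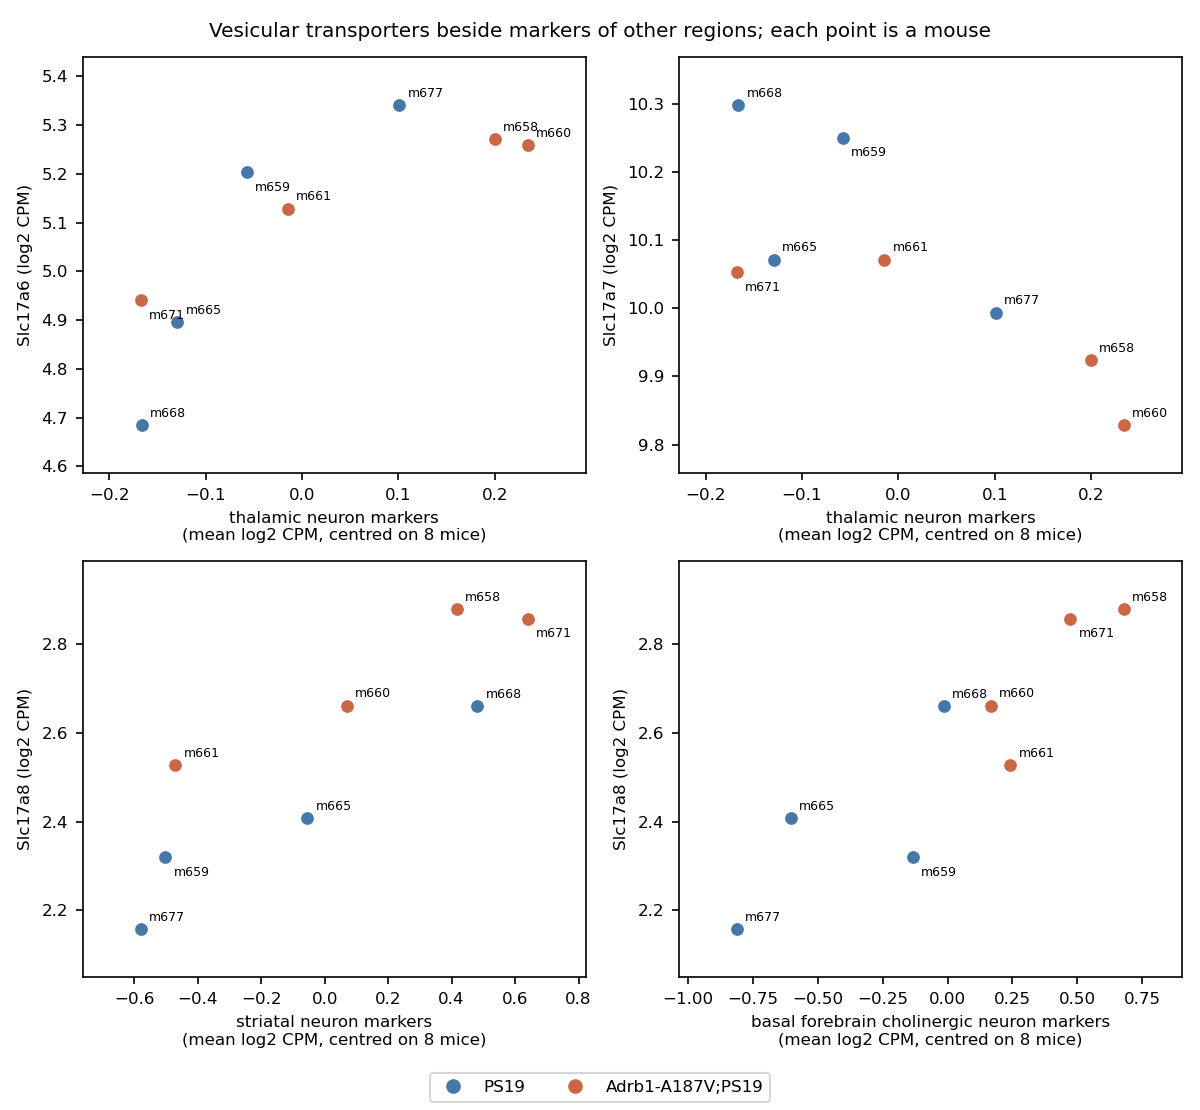
Log2 CPM of VGLUT genes (y axes) beside the mean log2 CPM of marker lists, centred on the 8 mice (x axes), with a labelled point for each mouse, coloured by genotype. Slc17a6 goes up with thalamic markers (r = 0.83) and Slc17a7 goes down (r = -0.79), while Slc17a8 goes up with striatal (r = 0.88) and basal forebrain cholinergic markers (r = 0.90); none of these passed the adjustment for multiple relations.

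Slc1a2 (ENSMUSG00000005089, chr2:102658659-102790784, plus strand) encodes GLT-1, the main glutamate carrier of astrocytes. Its level was 3247 CPM in m677, 3151 in m668, 3281 in m665 and 3381 in m659. In Adrb1-A187V;PS19 mice it was 3132 CPM in m671, 3261 in m661, 3408 in m660 and 3373 in m658. The highest mouse, m660, and the lowest, m671, were both Adrb1-A187V;PS19 mice. The means of 3265 ± 94.9 and 3293 ± 125 CPM (SD, n = 4 each) gave a log2 fold change of 0.01 (SE 0.04, unadjusted edgeR p 0.768; exact permutation p 0.771). The 95% interval of the ratio was 0.948 to 1.07. The spread over the 8 mice was 3.16% of the mean, at the 2.30 percentile of all genes tested, whose median was 10.5%. That ranking takes in genes of every level, and counting error, 0.417% for Slc1a2, is larger for genes with few reads. Genes of like level were not compared.

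Slc1a3 (ENSMUSG00000005360, chr15:8634124-8710764, minus strand), the gene of GLAST, the other astrocytic carrier, was at 564 CPM in m677, 513 in m668, 483 in m665 and 584 in m659. In Adrb1-A187V;PS19 mice it was at 517 CPM in m671, 571 in m661, 589 in m660 and 578 in m658. Levels of 513 or less were found in m668 and m665 alone, and the genotypes overlapped over the rest of the range. The means were 536 ± 46.3 and 564 ± 31.9 CPM (SD, n = 4 each), a log2 fold change of 0.07 (SE 0.06, 95% interval -0.06 to 0.21, unadjusted edgeR p 0.271; exact permutation p 0.286). The gene overlaps Gm37310, a predicted transcript on the same strand with 30 to 70 counts per library. Slc1a2 made up 76.2 to 78.6% of the 3 plasma membrane carriers per kb of the count table's gene length. With that length the ratio of Slc1a2 to Slc1a3 was 3.74 to 4.42 in PS19 mice and 3.72 to 3.94 in Adrb1-A187V;PS19 mice. The share and the ratio depend on the length used and are lower per kb of the longest protein-coding transcript. With that transcript length Slc1a2 was at 283 CPM per kb, Slc1a3 at 132 and Slc1a1 at 18.0.

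Astrocyte markers were measured beside both genes. Of 14, 10 were higher and 4 lower in Adrb1-A187V;PS19 mice (median log2 fold change 0.03), and their summed level was 3350 to 3907 CPM in PS19 mice and 3507 to 3975 in Adrb1-A187V;PS19 mice, with none at 0. Slc4a4, the sodium bicarbonate carrier of astrocytes, was the gene of the list with an unadjusted p under 0.05 (0.21, SE 0.05, unadjusted edgeR p 0.00203, adjusted p 0.9996). It was at 185 to 216 CPM in PS19 mice and 228 to 246 CPM in Adrb1-A187V;PS19 mice without overlap. Of all genes tested, 2.80% had an unadjusted edgeR p under 0.05 and 2.02% had ranges without overlap. Slc1a3 correlated with the astrocyte list with r = 0.77 (exact permutation p 0.0304, adjusted p 0.179) and rho = 0.86 (exact permutation p 0.0107). Without m668 and m665, the mice farthest from the median of the markers, r was 0.42, a weaker relation over a narrower range. With genotype means subtracted it was 0.77 (exact permutation p 0.0868), and with any 1 mouse left out it was 0.68 to 0.90. For Slc1a2 r was 0.59 (exact permutation p 0.129) and rho was 0.64 (exact permutation p 0.0962).

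Gfap, which encodes a filament protein of reactive astrocytes, separated the mice in another way than the genotype. It was at 748 CPM in m677, 257 in m668, 220 in m665 and 827 in m659, and at 354 in m671, 182 in m661, 838 in m660 and 752 in m658, with 2 mice of each genotype on each side of a gap from 354 to 748 CPM that was 60.2% of the range. Since the mice form separate clusters on this measure, no correlation with it is given. In the order of Gfap from the lowest mouse, m661, through m665, m668, m671, m677, m658 and m659 to the highest, m660, Slc17a6 was at 34.9, 29.6, 25.6, 30.6, 40.4, 38.5, 36.7 and 38.2 CPM. In the same order Slc1a3 was at 571, 483, 513, 517, 564, 578, 584 and 589 CPM, and Slc1a2 was at 3261, 3281, 3151, 3132, 3247, 3373, 3381 and 3408 CPM. The order was chosen after the data were seen, and the part of gliosis in the transporter values was not tested. Of 6 tested genes of the reactive astrocyte list, 3 were higher and 3 lower in Adrb1-A187V;PS19 mice, and its other genes, Lcn2 and Steap4, had 0 to 7 and 5 to 18 counts.

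**Figure D4:**
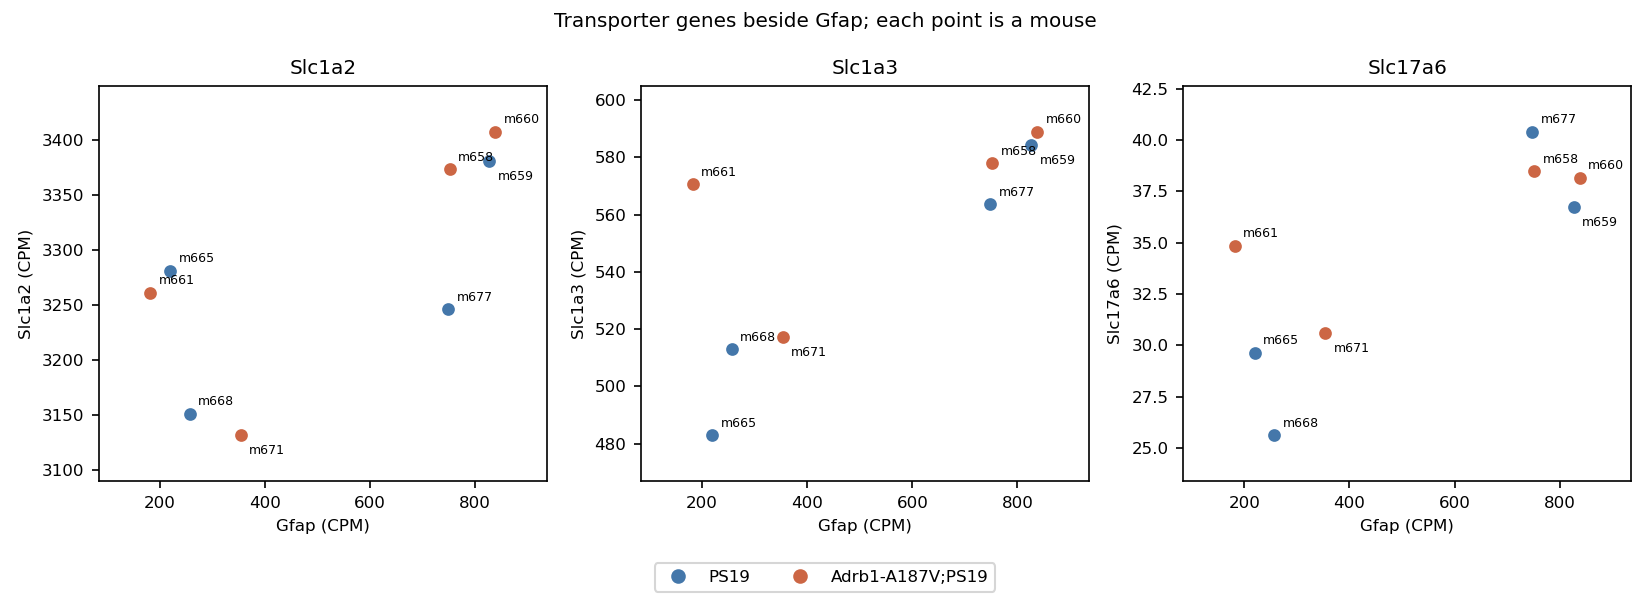
CPM of Slc1a2, Slc1a3 and Slc17a6 (y axes, which do not start at 0) beside Gfap CPM (x axes), with a labelled point for each mouse, coloured by genotype. Mice fall on both sides of a Gfap gap from 354 to 748 CPM, 2 of each genotype on each side.

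Slc1a1 (ENSMUSG00000024935, chr19:28835049-28913960, plus strand), which encodes the neuronal carrier EAAC1, was among the steadiest genes. It was at 69.9 CPM in m677, 70.5 in m668, 70.9 in m665 and 69.1 in m659. In Adrb1-A187V;PS19 mice it was at 66.04 CPM in m671, 66.8 in m661, 64.0 in m660 and 70.01 in m658. Of the Adrb1-A187V;PS19 mice m671, m661 and m660 were below all PS19 mice, and m658 was within their range. The means were 70.1 ± 0.809 and 66.7 ± 2.48 CPM (SD, n = 4 each), a log2 fold change of -0.07 (SE 0.05, 95% interval -0.18 to 0.04, unadjusted edgeR p 0.180; exact permutation p 0.0857). Its spread over the 8 mice was 3.65%, at the 4.40 percentile of all genes tested, whatever their level. Counting error was 2.89% of the level, not far below that spread, which limits the reading of small differences between mice. The gene overlaps 4430402I18Rik on the other strand, with 47 to 64 counts per library, and whether the counting used strand is not given in the sources used here. The other genes that overlap members had few reads: the pseudogene Gm5822 at Slc1a1 (0 to 3 counts), the antisense Gm13872 at Slc1a2 (1 to 9), Mir7055 at Slc17a7 (0 to 5) and Gm45072 at Slc17a6 (0 in every library).

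Among the 15 pairs of members, r was 0.83 between Slc17a6 and Slc1a3 (exact permutation p 0.0110, adjusted p 0.163), with rho = 0.67 (exact permutation p 0.0831). Without m665 and m668 r was 0.78, and with genotype means subtracted it was 0.81 (exact permutation p 0.0608). By rho, Slc17a7 with Slc17a6 (-0.74) and Slc1a2 with Slc1a3 (0.74) each had an exact permutation p of 0.0458 (adjusted p 0.189). Slc17a8 with the cortical glutamatergic list had rho = -0.81 (exact permutation p 0.0218, adjusted p 0.189). Of the 33 relations computed among members and with the astrocyte, cortical glutamatergic and thalamic lists, 7 had an unadjusted exact permutation p of r under 0.05 and 0 an adjusted p under 0.05, the smallest adjusted p being 0.163. The other 3 of the 7 were Slc1a3 with the thalamic list (r = 0.76, exact permutation p 0.0325; rho = 0.74, exact permutation p 0.0458; r = 0.69 without m660 and m658), Slc1a2 with that list (r = 0.73, exact permutation p 0.0455; rho = 0.71, exact permutation p 0.0576; r = 0.44 without the same mice) and Slc17a6 with the astrocyte list (r = 0.81, exact permutation p 0.0179; rho = 0.79, exact permutation p 0.0279; r = 0.52 without m668 and m665). With genotype means subtracted, r of these 3 was 0.71 (exact permutation p 0.0399), 0.75 (exact permutation p 0.0677) and 0.80 (exact permutation p 0.0938).

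The genes most like Slc17a7, Slc17a6, Slc1a2 and Slc1a3 over the 8 mice, by Pearson's r of log2 CPM among all 17195 genes, are given as a description. They were Slc36a1, a proton-coupled amino acid carrier, Iqsec2, a postsynaptic exchange factor, and Tspan13, a tetraspanin, for Slc17a7 (r = 0.98, 0.97 and 0.96). For Slc17a6 they were the protease gene Capn2, Ankra2 and the peroxiredoxin gene Prdx6 (0.97, 0.97 and 0.96). For Slc1a2 they were Ric1, the pseudogene Gm13050 and the chromatin gene Arid2 (0.96, 0.95 and 0.94), and for Slc1a3 they were Gpc3, Tfpi and Ntrk2, the receptor of BDNF (0.98, 0.97 and 0.97). With 8 points and this many genes, values of this size are the top of a long ranking.

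The other genes of glutamate and glutamine handling were described by 5 lists of 30 genes, of which 25 could be tested. Of these, 12 were higher and 13 lower in Adrb1-A187V;PS19 mice. Their median log2 fold change was -0.00, beside 0.00 over all genes, and 1 had an unadjusted p under 0.05, beside 2.80% of all genes. It was Slc38a3, which encodes SNAT3, a glutamine carrier of astrocytes. It was at 69.3, 65.2, 72.0 and 73.6 CPM in m677, m668, m665 and m659 and at 72.1, 77.0, 81.0 and 78.8 CPM in m671, m661, m660 and m658. The genotypes overlapped, and the log2 fold change was 0.14 (SE 0.06, unadjusted edgeR p 0.0308, adjusted p 0.9996).

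Of the 7 enzymes, 3 were higher and 4 lower, with the highest log2 fold change, 0.05, for Gpt2, a mitochondrial alanine transaminase, and none had an unadjusted p under 0.05. Of the 7 glutamine carriers, 2 were higher and 5 lower, from -0.23 for Slc38a5, which had 27 to 69 counts, to 0.14 for Slc38a3. Of the 4 mitochondrial carriers, 2 were higher and 2 lower, from -0.09 for Slc25a22, a glutamate carrier, to 0.12 for Slc25a13, an aspartate and glutamate exchanger. Of the 5 tested genes among 6 other carriers of the plasma membrane, 3 were higher and 2 lower, from -0.05 for Slc1a6, the Purkinje cell carrier EAAT4, to 0.06 for Slc1a4, a carrier of neutral amino acids. Of the 6 other SLC17 genes, Slc17a1 and Slc17a4 had 0 counts in every library and 2 could be tested: Slc17a5, the sialic acid carrier of lysosomes, at 0.01, and Slc17a9, the vesicular nucleotide carrier, at 0.79 (SE 0.38, unadjusted edgeR p 0.0550) on only 4 to 22 counts per library. Slc17a9 was at 0.245 to 0.663 CPM in PS19 mice and 0.672 to 1.05 CPM in Adrb1-A187V;PS19 mice. These ranges did not overlap, as was so for 2.02% of all genes tested.

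**Figure D5:**
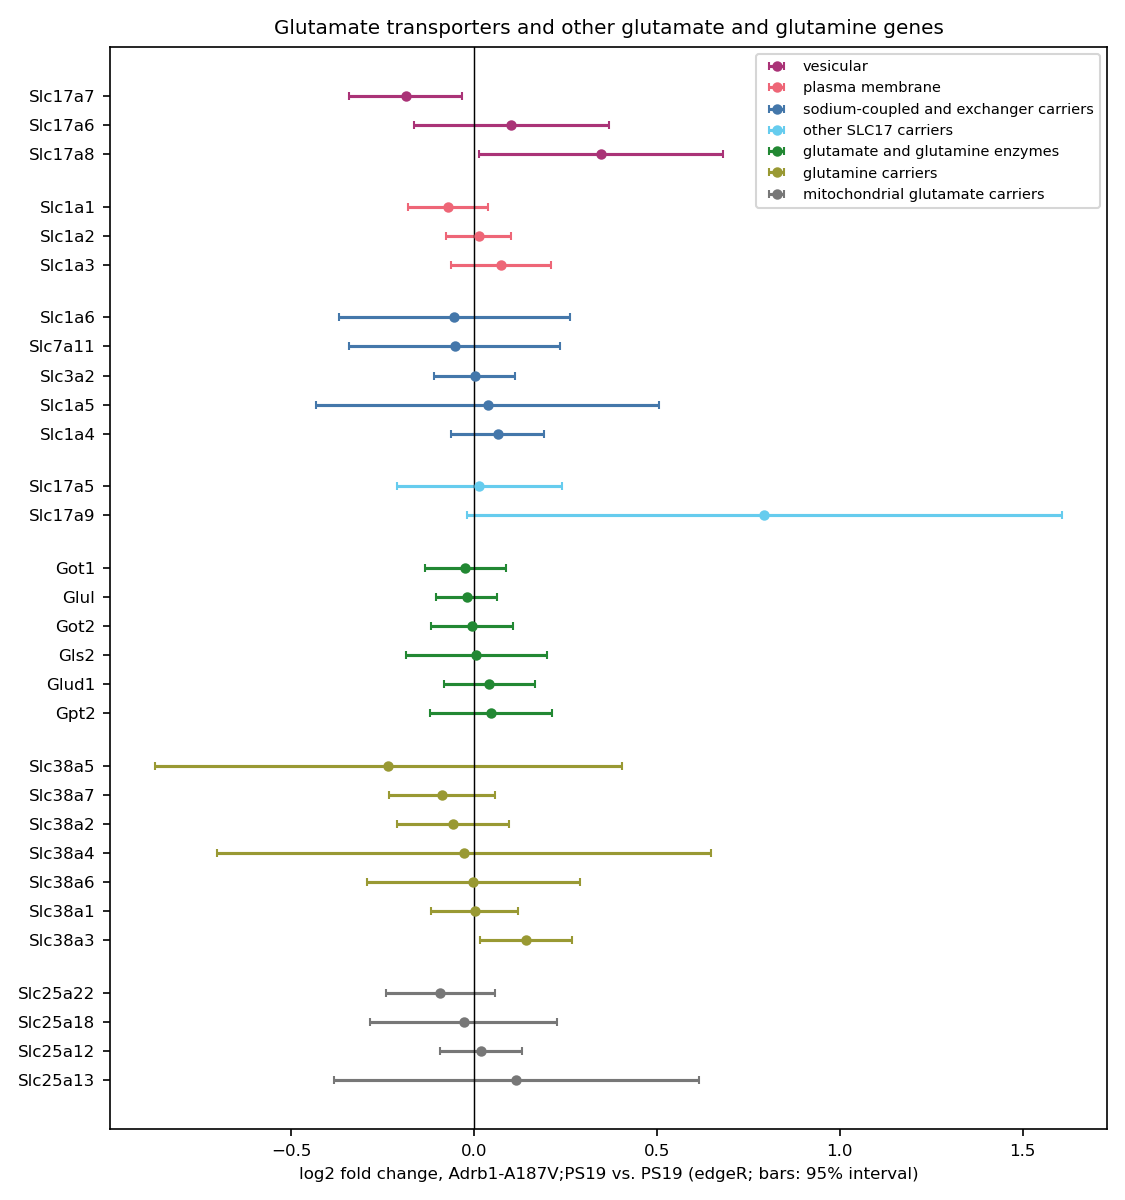
Log2 fold changes between Adrb1-A187V;PS19 and PS19 mice (x axis) of the 6 transporter genes and other glutamate and glutamine genes, grouped and coloured by list; points are edgeR estimates and bars 95% intervals. The intervals of Slc17a7, Slc17a8 and Slc38a3 do not reach 0, and the interval of Slc17a9, a gene with few reads, is the widest.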

How the data were processed

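RNA-seq of the cortex of 8 mice was used, 4 PS19 and 4 Adrb1-A187V;PS19, grouped by the genotype in the labels. The authors aligned the reads to GRCm38 with HISAT2 2.0.5, counted them with featureCounts 1.5.0-p3 and deposited raw counts per gene; strand and multiple-mapping settings are not given in the sources used here. The deposited table also gives each gene's length in bases, used for levels per kb. The labels do not name separate litters or cultures, so mice that shared a litter could not be told apart from others. The p-values treat the mice as independent, and those of edgeR also draw on the spread of other genes.

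Genes were kept with filterByExpr (17195 of 54532), scaled with TMM factors and tested between genotypes with edgeR 4.0.16 in R 4.3.3 (quasi-likelihood test without covariates, 2-sided), and p-values were adjusted over those genes by the Benjamini-Hochberg method. CPM use the TMM-scaled library size, and log2 CPM a prior count of 2. A marker score is the mean over a list's tested genes of each gene's log2 CPM minus its mean over the 8 mice. Exact permutation tests used the 70 arrangements of the mice or the 40320 pairings, or 576 within genotypes. Alternatives were DESeq2 1.42.0, limma-voom (limma 3.58.1), DESeq2's size factors, other count filters and each mouse left out. The fit was also run on simulated counts, drawn independently for each mouse, with 200 genes changed 2-fold. An unadjusted p under 0.05 was given to 93.8% of the changed genes tested and to 4.83% of the unchanged genes. The members' changes were smaller than 2-fold, so that run does not show how well such changes are found. The genes, lists and tests were chosen with earlier results of these data known. Named are all members, the pathway genes with an unadjusted p under 0.05 and the lowest and highest of each pathway list, the 3 genes most like Slc17a7, Slc17a6, Slc1a2 and Slc1a3, overlapping genes, and markers at 0 or with an unadjusted p under 0.05. Gfap, Gbx2, Shox2, Lcn2 and Steap4 were named after their values were seen. Among the genes this rule names, 2 are not reported here.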

Additional observations from a re-analysis of the deposited data

How the results depend on the processing

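No paired analysis was possible because mouse numbers in the labels differ between all mice and name no shared litter. No member had an adjusted p under 0.05 in edgeR or in any of the 13 other fits (DESeq2, limma-voom, other scaling or filters, or a mouse left out). Slc17a7 was lower in Adrb1-A187V;PS19 mice in 13 of 13 (log2 fold change -0.24 to -0.14) and had an unadjusted p under 0.05 in 9, losing it without m668, m659, m660 or m658. Slc17a8 was higher in 13 of 13 (0.28 to 0.44) with an unadjusted p under 0.05 in 6, losing it in DESeq2 (unadjusted p 0.0522) and without m677, m665, m659, m671, m660 or m658. The count of members under 0.05 was 2 in edgeR, 1 in DESeq2 and 0 to 2 with a mouse left out. The count of other glutamate and glutamine genes was 1 in edgeR, 2 in limma-voom (Slc38a3 and Slc17a9) and 0 to 3 with a mouse left out, being 0 without m668, m661, m660 or m658, 2 without m659 and 3 without m665. The Slc1a2 log2 fold change was -0.00426 to 0.0351 with a mouse left out, below 0 without m668 (-0.00426) or m660 (-0.00402). Slc17a6 ranged from 0.0008 to 0.21, Slc1a3 from 0.03 to 0.12 and Slc1a1 from -0.10 to -0.05, each in 1 direction. The cause of these shifts was not tested. The precision was limited by 4 mice per genotype and, for Slc17a8, by its 71 to 128 reads.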
